A study of Mus musculus with 4 samples.

Results

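The glycosyltransferase, sialyltransferase and carbohydrate sulfotransferase families build and cap the sugar chains of cell-surface proteins and lipids. The genes were taken by symbol, as every gene whose symbol starts with St3gal, St6gal, St8sia, B3gnt, B3galt, B4galt, B4galnt, Gcnt, Galnt, Mgat, Chst, or Fut and a digit. The rule found 99 of 18193 genes that had at least 1 probe set naming no other gene, in 13 families when the St6galnac genes are counted apart from St6gal, and used no measured value. Each gene is represented by the probe set that names it alone and has the highest mean over the 4 arrays.

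Glycans on T cells are assembled in the Golgi step by step. Galnt enzymes start O-glycans by adding GalNAc to serine or threonine, Mgat enzymes branch N-glycans, and Gcnt enzymes branch O-glycans and lactosamine chains. B3gnt and B4galt enzymes extend the chains, sialyltransferases and fucosyltransferases cap them, and Chst enzymes add sulfate. Such caps and branches decide whether a T cell binds selectins, galectins and Siglecs, and the set of enzymes a helper T cell expresses is known to change with its activation and differentiation.

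RNA was measured in mouse CD4+ T cells, sorted as naive CD44- CD62L+ cells from C57BL/6J spleen and lymph nodes and cultured for 72 h. All 4 cultures received plate-bound antibodies to CD3 and CD28, IL-6 at 20 ng/ml, TGF-beta at 2 ng/ml and an antibody to IL-4, conditions that drive Th17 cells. Each group was 1 array. STAT3-deficient cells were CD4-Cre stat3 fl/fl OT2 and their control, called STAT3 wild type, was stat3 fl/fl OT2 without Cre; both were cultured with an antibody that neutralises IL-2, at 10 µg/ml. STAT5-deficient cells were CD4-Cre stat5 fl/fl OT2 and their control, STAT5 wild type, was stat5 fl/fl OT2; both were cultured with IL-2 at 100 IU/ml. All 4 groups thus carried the OT2 T cell receptor transgene and a floxed Stat allele, and Cre under the Cd4 promoter acts in the T cell lineage from the thymus on. No source used here gives the age or number of the mice. The genotype field of both Cre-carrying samples ends in the words for wild type, against their titles. The comparisons ask what STAT3, which IL-6 activates, and STAT5, which IL-2 activates, contribute to expression in these cells. STAT3 is the factor that drives the Th17 programme and STAT5 restrains it.

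Stat3 stood at 9.93 in STAT3-deficient cells and 12.87 in STAT3 wild-type cells, and Stat5a at 5.91 in STAT5-deficient cells and 10.92 in STAT5 wild-type cells. Stat5b stood at 6.09 in STAT5-deficient cells and 11.33 in STAT5 wild-type cells. Each targeted gene was therefore lower in the cells titled as lacking it. All values are levels or differences on the log2 scale as deposited, where a difference of 1 is 2-fold. A gene is called higher or lower in a comparison at a difference of 1 or more in size, with no test, because no group has a replicate. A level under 6.20, the median of all values on the 4 arrays, was not taken as distinguishable from background. Precision is limited by there being 1 array a group. All 10 analysed CD4 T cell markers, such as Cd3e and Cd4, lay above that median on all 4 arrays, at 9.53 to 13.35. Of 18 analysed markers of B, myeloid, NK, CD8, erythroid, epithelial or stromal cells, 8 passed the median on some array. Of these 8, 4 lay above it on all 4 arrays (Epcam, Csf1r, Cd8b1 and Pecam1), and 0 differed 2-fold in any comparison. In RNA from whole cultures, a change in cell types and a change in RNA per cell cannot be told apart. Array medians were 6.10 for STAT3-deficient, 6.34 for STAT3 wild type, 6.21 for STAT5-deficient and 6.15 for STAT5 wild type.

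Of the 99 genes, 73 passed the median on at least 1 array and were compared, 52 of them on all 4 arrays. The other 26 lay under it on all 4 arrays. These were Galnt5, Galnt13, Galnt14, Galnt15, Galnt18, Galntl5 and Galntl6 among the initiating enzymes, and Gcnt3, Gcnt7, Mgat4c, Mgat4d, Mgat4e and Mgat5b among the branching enzymes. Among the extending enzymes they were B3gnt4, B3gnt6, B3gnt7, B3gnt9, B3galt1 and B3galt2. The capping and sulfating enzymes in this group were St6gal2, Fut1, Fut9, Chst1, Chst4, Chst8 and Chst9. No difference is read from any of them. All St3gal, St6galnac, St8sia, B4galt and B4galnt genes passed, 1 of 2 St6gal genes, 11 of 18 Galnt genes and 10 of 14 Chst genes, beside 68.4% of all genes.

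In STAT3-deficient cells, 6 of the 73 genes were higher and 8 lower than in STAT3 wild-type cells. Over all 12439 genes compared, 2.85% were higher and 7.24% lower, and of the 73 genes 8.22% were higher and 11.0% lower. The higher genes were St8sia6, St8sia4, B4galnt1, St6galnac2, St3gal2 and St6galnac1, of which all but B4galnt1 encode sialyltransferases. The lower genes were Gcnt2, B4galnt4, B3gnt8, Gcnt1, Galnt2, St3gal4, Galnt12 and Fut4, which start, branch, extend or cap glycans. The median difference of the 73 genes was -0.19, beside -0.20 for all genes compared, and over all 99 it was -0.21, beside -0.20 for all genes without a filter. The middle of the families thus lay where the middle of all genes lay. With each array centred on its median, the median difference was 0.05 for the 73 genes and 0.04 for all genes compared. The split of the 73 was then 9 higher and 6 lower, beside 4.13% and 4.74% of all genes compared. B3gnt2, B4galt5 and St3gal1 were added above, and Fut4 and Galnt12 fell short below. At 3-fold, 3 genes were higher and 3 lower (1.44% and 2.76% of all genes), and at 1.5-fold, 9 were higher and 20 lower (5.66% and 19.2%). With every level under background set to 6.20, so that a difference is a bound, 4 were higher and 7 lower (2.36% and 5.45% of all genes); St6galnac1, St6galnac2 and Fut4 then fell short.

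**Figure D1:**
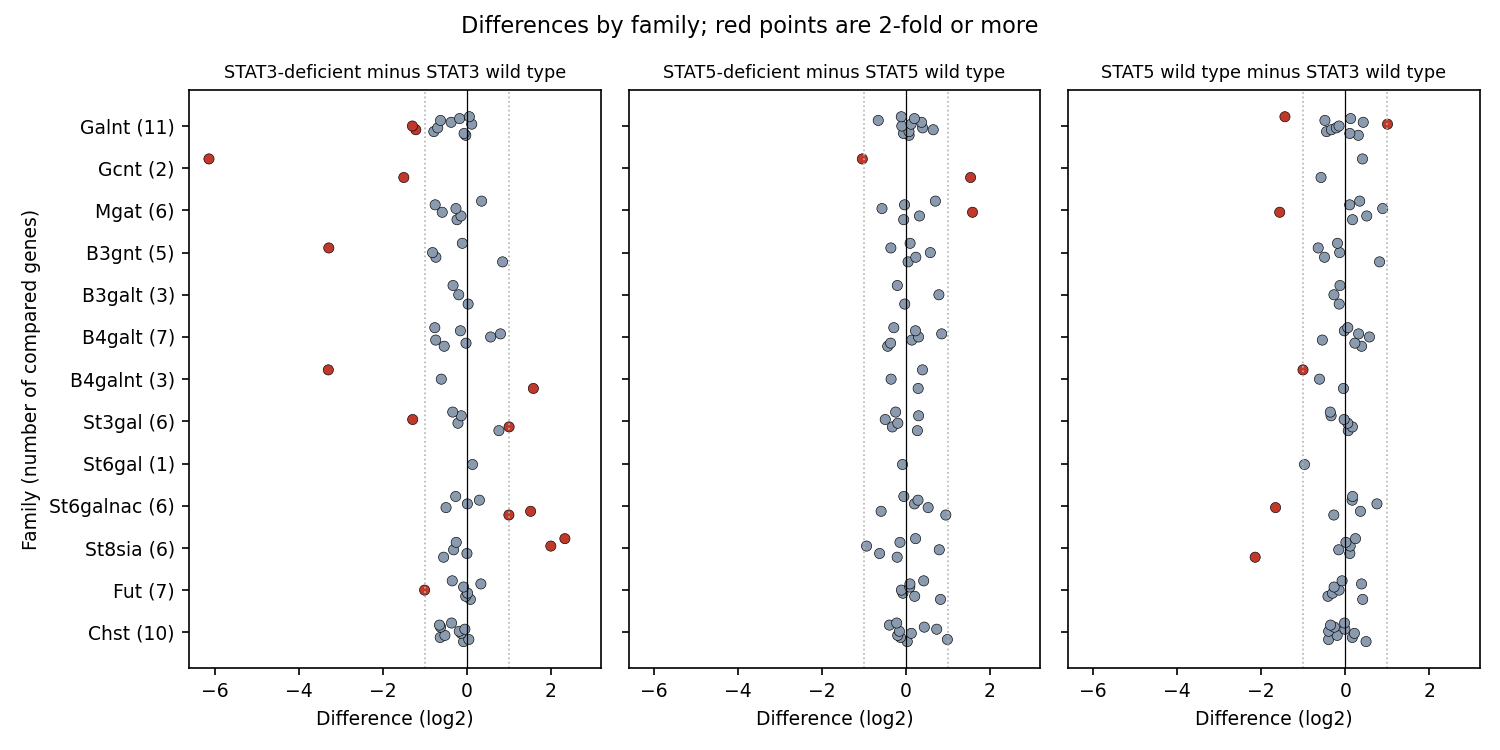
Differences (log2, horizontal axis) of the 73 compared genes by family (rows, with the number of genes), in the 3 comparisons; each point is 1 gene and red points are 2-fold or more apart. Gcnt2, at -6.13, stands farthest out in the STAT3 pair. In that pair only, the sialyltransferase rows hold the points farthest to the right.

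Gcnt2 encodes the enzyme that adds the branch which turns linear lactosamine chains into the I blood group form. Its level was 3.94 in STAT3-deficient cells, 10.07 in STAT3 wild-type cells, 9.44 in STAT5-deficient cells and 10.48 in STAT5 wild-type cells. Only the STAT3-deficient array lay under background, and the other 3 lay within 1.04 of each other. The difference in the STAT3 pair was -6.13, or 70.3-fold, and since the deficient level is under background the data give at least 14.7-fold against the median of all values. Gcnt2 has 8 probe sets, of which 6 passed the median, and these 6 differed by -6.13, -4.69, -3.89, -3.01, -2.60 and -2.51. In 5 of them the STAT3-deficient level was under background, so their sizes are bounds and cannot be set against each other: they amount to at least 14.7-fold, 5.0-fold, 3.2-fold, 1.62-fold and 1.27-fold. The sixth, above background on all arrays, differed by -2.51, at 6.48 in STAT3-deficient and 8.99 in STAT3 wild-type cells. The other 2, under background throughout, differed by 0.35 and -0.01.

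The RefSeq tables of GRCm38.p6 list 3 start sites for Gcnt2, and the window from 250 bases before to 50 bases after each is shown because no other member differed as much. Below them stand the windows of B3gnt8 and B4galnt4, the lower genes with the next largest differences, and of St8sia6, the higher gene with the largest. Capitals mark matches to TTCNNNGAA, the palindromic core that STAT dimers bind, which reads alike on both strands.
Gcnt2, first start (chr13:40859518-40859817, plus strand): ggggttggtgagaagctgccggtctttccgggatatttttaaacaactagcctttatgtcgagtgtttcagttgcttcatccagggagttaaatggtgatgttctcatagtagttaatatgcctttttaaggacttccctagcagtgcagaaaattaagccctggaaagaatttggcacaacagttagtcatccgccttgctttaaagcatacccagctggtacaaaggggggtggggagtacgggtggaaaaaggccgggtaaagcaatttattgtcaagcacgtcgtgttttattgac
Gcnt2, middle start (chr13:40886508-40886807, plus strand): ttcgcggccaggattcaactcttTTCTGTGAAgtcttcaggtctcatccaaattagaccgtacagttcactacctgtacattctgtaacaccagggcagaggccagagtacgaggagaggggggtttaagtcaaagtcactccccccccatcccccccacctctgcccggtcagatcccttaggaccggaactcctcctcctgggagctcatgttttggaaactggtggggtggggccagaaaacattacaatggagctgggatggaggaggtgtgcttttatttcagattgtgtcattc
Gcnt2, last start (chr13:40917384-40917683, plus strand): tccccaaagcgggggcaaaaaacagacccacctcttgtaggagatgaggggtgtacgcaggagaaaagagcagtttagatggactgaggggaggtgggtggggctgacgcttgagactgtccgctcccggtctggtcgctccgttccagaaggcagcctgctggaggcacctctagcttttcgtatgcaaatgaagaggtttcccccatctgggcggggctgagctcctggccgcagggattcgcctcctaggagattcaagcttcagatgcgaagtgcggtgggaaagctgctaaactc
B3gnt8 (chr7:25627374-25627673, plus strand): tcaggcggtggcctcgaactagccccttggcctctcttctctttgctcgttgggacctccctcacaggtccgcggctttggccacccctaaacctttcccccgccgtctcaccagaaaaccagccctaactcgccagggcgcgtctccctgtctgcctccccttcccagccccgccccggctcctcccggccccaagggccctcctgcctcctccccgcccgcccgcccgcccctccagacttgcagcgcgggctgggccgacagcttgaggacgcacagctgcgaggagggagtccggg
B4galnt4 (chr7:141060728-141061027, plus strand): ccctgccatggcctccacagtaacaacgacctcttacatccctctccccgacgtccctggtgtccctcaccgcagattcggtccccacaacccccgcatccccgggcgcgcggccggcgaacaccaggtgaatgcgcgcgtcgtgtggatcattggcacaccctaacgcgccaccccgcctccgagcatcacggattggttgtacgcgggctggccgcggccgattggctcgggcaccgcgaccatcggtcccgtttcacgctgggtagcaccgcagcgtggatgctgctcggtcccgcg
St8sia6 (chr2:13793471-13793770, minus strand): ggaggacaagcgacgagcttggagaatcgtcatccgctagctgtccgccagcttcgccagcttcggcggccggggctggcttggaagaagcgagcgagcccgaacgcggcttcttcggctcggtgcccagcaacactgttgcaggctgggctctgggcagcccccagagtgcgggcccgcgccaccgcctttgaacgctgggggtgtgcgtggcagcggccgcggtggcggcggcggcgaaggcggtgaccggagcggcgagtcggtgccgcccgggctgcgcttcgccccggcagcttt

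Of these 6 windows, the 1 at the middle start of Gcnt2 holds a match, TTCTGTGAA, whose first base lies 227 bases before the start. Promoter windows were found for 75 of the 99 genes, 101 windows in all, and 5 windows (4.95%) held TTCNNNGAA, beside 8.3% of all 32851 windows of the same length. The other 4 belong to B3galt5, B4galt1, Galntl6 and Mgat2. Among the 14 genes called in the STAT3 pair, 8 had windows, and 1 of their 12 windows held a match. The share over the 101 member windows was thus below that of all promoter windows, on 5 matches. For the 12 windows of the called genes, 1 match is too few to set against that share. A match is only a stretch of letters, and no match says nothing of more distant sites.

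B3gnt8, which extends lactosamine chains on N-glycans and works with B3gnt2, was at 6.29 in STAT3-deficient cells, 9.58 in STAT3 wild-type cells, 8.57 in STAT5-deficient cells and 8.93 in STAT5 wild-type cells. The STAT3-deficient level was just above background and 9.73-fold under its control (-3.28). B4galnt4, which makes the LacdiNAc terminus by adding GalNAc in place of galactose, was at 5.44 in STAT3-deficient cells, 8.73 in STAT3 wild-type cells, 8.12 in STAT5-deficient cells and 7.73 in STAT5 wild-type cells. Its difference of -3.29 amounts to at least 5.80-fold against background. Each of these 2 genes has 1 probe set, so no second probe set bears on them. B3gnt2, the main polylactosamine synthase, lay the other way at 10.51 in STAT3-deficient and 9.66 in STAT3 wild-type cells (0.85), under 2-fold as deposited and 1.10 with arrays centred. B4galnt2, which makes the Sda antigen, stood at -0.60 in the same pair and passed background on 1 array.

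Gcnt1, which makes the core 2 branch of O-glycans on which selectin ligands are built, was the member with opposite calls in the 2 deletion pairs. It was at 5.99 in STAT3-deficient cells and 7.48 in STAT3 wild-type cells, a difference of -1.50 or at least 2.44-fold against background. It was at 8.44 in STAT5-deficient cells and 6.91 in STAT5 wild-type cells, a difference of 1.54 or 2.90-fold. Its level was therefore lowest without STAT3 and highest without STAT5, with the controls between them. Its second probe set was at 5.34 in STAT3-deficient and 6.54 in STAT3 wild-type cells, and at 7.38 in STAT5-deficient and 5.93 in STAT5 wild-type cells. With the lower level of each pair under background, it gives at least 1.27-fold and at least 2.28-fold, of which the second reaches 2-fold. The calls held with arrays centred (-1.25 and 1.47).

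Among the initiating enzymes, Galnt2 was at 8.80 in STAT3-deficient cells, 10.09 in STAT3 wild-type cells, 9.84 in STAT5-deficient cells and 9.94 in STAT5 wild-type cells. The STAT3-deficient level stood apart from 3 close values, with a difference of -1.29 in its pair, although 2 other probe sets differed by -0.82 and -0.63. Galnt12 was at 9.65 in STAT3-deficient cells, 10.87 in STAT3 wild-type cells, 11.18 in STAT5-deficient cells and 10.54 in STAT5 wild-type cells. Its difference of -1.21 in the STAT3 pair came to -0.97 with arrays centred, short of 2-fold, and rests on 1 probe set. The brightest initiating probe set, that of Galnt1, read 10.55 in STAT3-deficient and 10.57 in STAT3 wild-type cells. The remaining initiating genes lay between -0.78 (Galnt11) and 0.12 (Galnt3) in this pair.

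Taken as 4 families together, the sialyltransferases held 5 of the 6 higher genes without STAT3. Of their 19 compared genes 26.3% were higher and 5.26% lower (1 gene), beside 2.85% and 7.24% of all genes, and their median difference was 0.01, beside -0.20 for all genes compared. By family, 2 of 6 St8sia, 2 of 6 St6galnac, 1 of 6 St3gal and 0 of 1 St6gal genes were higher, and 1 of 3 B4galnt genes. Both St6galnac calls rest on levels near or under background and were lost with probe sets averaged. They also fell short with every level under background set to the median of all values. Of the 19 genes, only St8sia6, St8sia4 and St3gal2 were then higher, beside 2.36% of all genes. The share of 26.3% thus includes both St6galnac calls and is smaller without them. St8sia6 and St8sia4 had the largest differences. St8sia6, which adds a sialic acid to sialic acid on O-glycans and makes ligands for the inhibitory receptor Siglec-E in mice, was at 8.36 in STAT3-deficient cells, 6.02 in STAT3 wild-type cells, 6.49 in STAT5-deficient cells and 6.27 in STAT5 wild-type cells. The other 3 arrays were thus near background, and the difference of 2.34 amounts to at least 4.47-fold. Its 2 other probe sets were at 9.23 and 9.10 in STAT3-deficient cells and at 6.00 and 5.67 in STAT3 wild-type cells, at least 8.15-fold and 7.47-fold. All 3 probe sets were thus more than 2-fold higher. In the STAT5 pair the probe set used gave 0.23, and the others, with their STAT5 wild-type levels under background, at least 1.17-fold and 1.13-fold.

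St8sia4, a polysialyltransferase that acts on carriers such as NCAM, was at 10.16 in STAT3-deficient cells, 8.15 in STAT3 wild-type cells, 7.33 in STAT5-deficient cells and 8.27 in STAT5 wild-type cells. It was 4.0-fold higher in the STAT3 pair (2.0) and stood at -0.94 in the STAT5 pair, short of 2-fold as deposited and at -1.0 with arrays centred. Its second probe set was at 6.64 in STAT3-deficient and 6.15 in STAT3 wild-type cells, at least 1.35-fold, and under background in both STAT5 arrays. Both probe sets are of a type that can match several transcripts, and the call was lost when such probe sets were dropped. B4galnt1, the GM2 and GD2 ganglioside synthase, was at 11.39 in STAT3-deficient cells, 9.81 in STAT3 wild-type cells, 10.05 in STAT5-deficient cells and 9.76 in STAT5 wild-type cells. The difference was 1.59 by this probe set and 0.11 by the other. The mean of both, 0.85, did not reach 2-fold.

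St6galnac2, which adds sialic acid to the GalNAc of O-glycans, was at 6.77 in STAT3-deficient cells, 5.25 in STAT3 wild-type cells, 5.02 in STAT5-deficient cells and 5.61 in STAT5 wild-type cells. The other 3 arrays lay under background, so the difference of 1.52 is at least 1.49-fold. St6galnac1, the sialyl-Tn synthase, was at 7.0 in STAT3-deficient and 6.00 in STAT3 wild-type cells (1.0), and at 6.67 in STAT5-deficient and 5.73 in STAT5 wild-type cells (0.95). Both controls lay under background and both deficient arrays above it. Against 6.20 the differences of St6galnac1 amount to at least 1.75-fold and 1.39-fold. The second probe set of each gene was under background on all arrays. St6galnac4, the brightest of its family, was at 9.39 in STAT3-deficient cells, 9.38 in STAT3 wild-type cells, 10.33 in STAT5-deficient cells and 10.13 in STAT5 wild-type cells, so it differed by 0.02 and 0.20 in the 2 deletion pairs.

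Sialyltransferases that act on galactose differed in both directions. St3gal2, which sialylates core 1 O-glycans and gangliosides, was at 9.54 in STAT3-deficient cells, 8.53 in STAT3 wild-type cells, 8.38 in STAT5-deficient cells and 8.70 in STAT5 wild-type cells. Its 3 probe sets differed by 1.01, 1.03 and 1.39 in the STAT3 pair, all above 2-fold. St3gal1, which acts on the same core 1 structure, was at 7.89 in STAT3-deficient and 7.12 in STAT3 wild-type cells (0.77, and 1.01 with arrays centred). St3gal4, an enzyme of selectin ligand synthesis that acts on lactosamine, went the other way, at 8.63 in STAT3-deficient cells, 9.92 in STAT3 wild-type cells, 9.40 in STAT5-deficient cells and 9.89 in STAT5 wild-type cells (-1.29 and -0.49 in the 2 pairs). St3gal4 has 1 probe set, of a type that can match several transcripts, and its call was lost when such probe sets were dropped. St3gal3, St3gal5 and St3gal6 lay between -0.33 and -0.13 in the STAT3 pair. St6gal1, which adds sialic acid to N-glycans, was at 11.48 in STAT3-deficient and 11.36 in STAT3 wild-type cells (0.12).

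**Figure D2:**
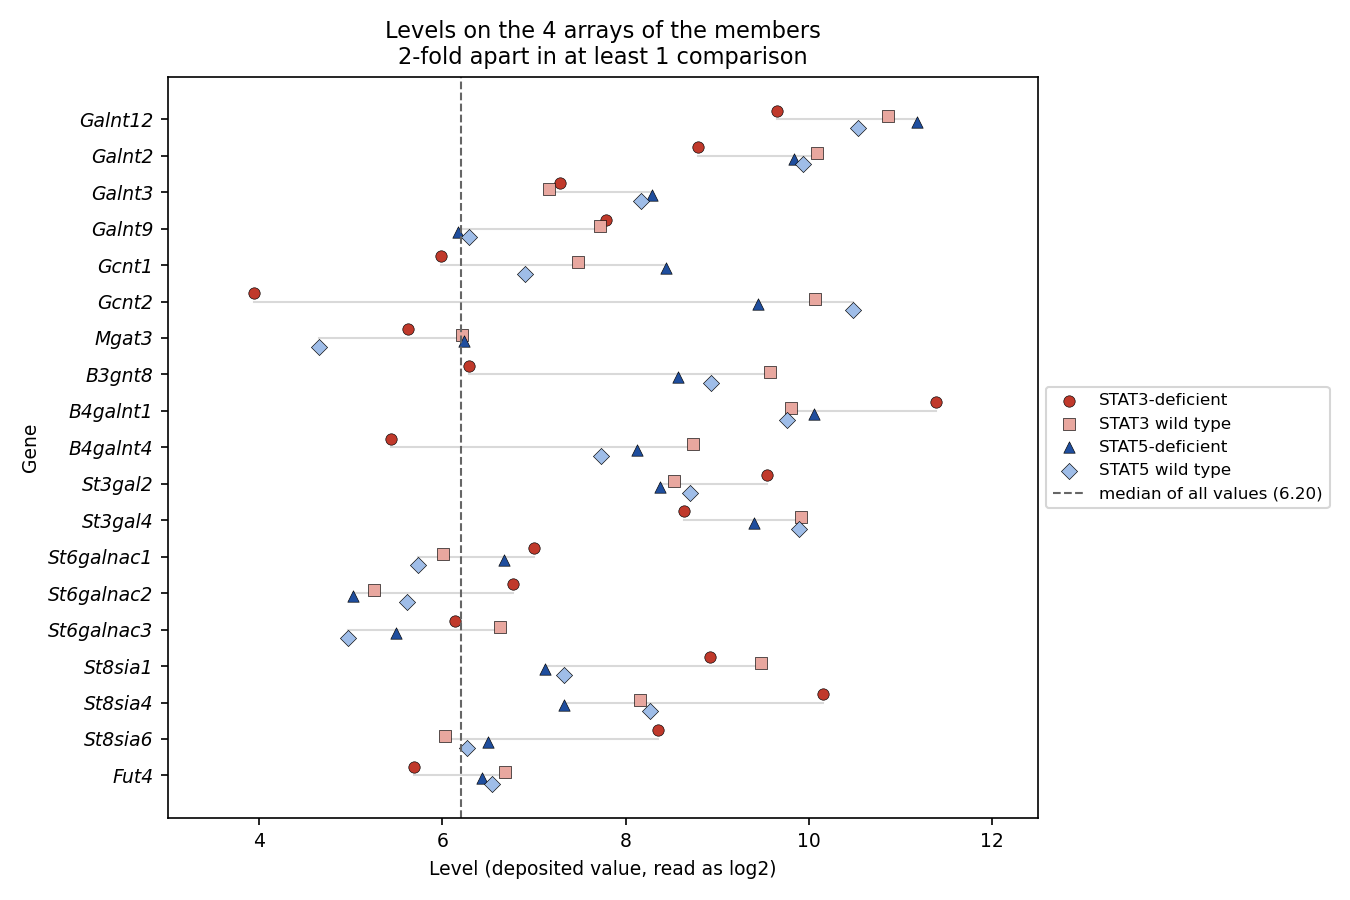
Levels (deposited values read as log2, horizontal axis) of the 19 members 2-fold apart in at least 1 of the 3 comparisons, on each of the 4 arrays; each marker is 1 array and the dashed line is the median of all values, 6.20. The STAT3-deficient marker lies 2-fold or more to the left of the other 3 for Gcnt2, B3gnt8, B4galnt4 and Galnt2 and to their right for B4galnt1, St6galnac2, St8sia4 and St8sia6.

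The array that stood alone was most often that of the STAT3-deficient cells, among these genes as among all genes compared. A count of genes at least 2-fold beyond all 3 other arrays, a rule added after the data were seen, gave 4 of the 73 genes above (B4galnt1, St6galnac2, St8sia4 and St8sia6) and 4 below (B3gnt8, B4galnt4, Galnt2 and Gcnt2) for the STAT3-deficient array. Over all genes compared the shares were 1.5% and 3.11%, beside 5.48% in each direction here. St6galnac2 was under background on the other 3 arrays and falls short when such levels are set to 6.20, which leaves 3 above and 4 below (4.11% and 5.48%, beside 1.25% and 2.46% of all genes). Both counts take 1 probe set per gene. For B4galnt1, St8sia4 and Galnt2 the other probe sets above background differed by less than 2-fold in the STAT3 pair. Of the 73 genes, 0 lay so far beyond the others on any of the remaining 3 arrays. The shares of all genes above and below were 0.635% and 0.305% for STAT3 wild type, 0.37% and 0.281% for STAT5-deficient, and 0.426% and 0.281% for STAT5 wild type. Beside shares this small, 0 of 73 genes is not read as a difference.

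Fucosyltransferases and sulfotransferases gave 1 call between them in the STAT3 pair, on 7 and 10 compared genes. Of all genes compared, 10.1% were called in this pair, and 1 call on so few genes is not read as a difference from that share. Fut4, an alpha-1,3 enzyme, was at 5.68 in STAT3-deficient cells, 6.69 in STAT3 wild-type cells, 6.43 in STAT5-deficient cells and 6.54 in STAT5 wild-type cells. All 4 levels lie near background, and its difference of -1.0 was -0.76 with arrays centred. Fut7, the fucosyltransferase that completes sialyl Lewis x on selectin ligands, was at 9.73 in STAT3-deficient cells, 9.39 in STAT3 wild-type cells, 9.88 in STAT5-deficient cells and 9.78 in STAT5 wild-type cells. Its levels spanned 0.34 in the STAT3 pair and 0.09 in the STAT5 pair. Fut8, which adds the core fucose of N-glycans, stood at -0.34 and 0.42 in the same pairs, and Fut4-ps1, a pseudogene that the rule includes, at -0.07 and 0.09. The 10 compared sulfotransferase genes lay between -0.65 (Chst5) and 0.05 (Chst11) in the STAT3 pair, with 0 past 2-fold. The brightest, Chst12, a chondroitin 4-sulfotransferase, was at 9.43 in STAT3-deficient and 10.06 in STAT3 wild-type cells.

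The N-glycan branching enzymes, with 6 compared genes, had no call in the STAT3 pair. Against 10.1% of all genes compared, so few genes without a call are not read as a difference. Mgat1, which opens the complex N-glycan pathway, was at 10.25 in STAT3-deficient cells, 10.48 in STAT3 wild-type cells, 10.60 in STAT5-deficient cells and 10.65 in STAT5 wild-type cells. Mgat5, whose branch is the preferred ligand of galectins and restrains T cell receptor signalling in mice, was at 9.14 in STAT3-deficient and 8.78 in STAT3 wild-type cells (0.35), and at 9.82 in STAT5-deficient and 9.12 in STAT5 wild-type cells (0.70). Its second probe set above background gave 0.72 and 0.83, so both probe sets lay above 0 in both pairs without reaching 2-fold. The galactosyltransferases B4galt1 to B4galt7 had no call in any comparison as deposited, and B4galt5 passed 2-fold in the STAT3 pair with arrays centred. Of all genes compared, 10.1% were called in the STAT3 pair, 3.60% in the STAT5 pair and 5.30% between the controls. B4galt1, which makes lactosamine, was at 11.56 in STAT3-deficient cells, 12.10 in STAT3 wild-type cells, 12.05 in STAT5-deficient cells and 12.48 in STAT5 wild-type cells. B4galt5, a lactosylceramide synthase, lay above its control in both pairs, at 0.80 and 0.85. B3galt4, the GM1 synthase, was at 8.33 in STAT3-deficient cells, 8.29 in STAT3 wild-type cells, 8.12 in STAT5-deficient cells and 8.15 in STAT5 wild-type cells.

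In STAT5-deficient cells, 2 of the 73 genes were higher and 1 lower than in STAT5 wild-type cells, shares of 2.74% and 1.37%, beside 1.86% and 1.74% of all genes compared. These shares are close to those of all genes, so the families as a whole did not stand out in this pair. With arrays centred 2 were higher and 2 lower, the added gene being St8sia4, beside 1.62% and 2.04% of all genes. At 3-fold there were 0 and 0 (0.587% and 0.563% of all genes), and at 1.5-fold 11 and 5 (6.43% and 5.18%). With levels under background set to 6.20, 1 was higher and 1 lower (1.24% and 1.29% of all genes), Mgat3 falling short. The median difference was 0.07 over the 73 genes and 0.07 over all genes compared. The higher genes were Gcnt1, given above, and Mgat3, which adds the bisecting GlcNAc of N-glycans. Mgat3 was at 6.23 in STAT5-deficient cells and 4.65 in STAT5 wild-type cells, and at 5.63 in STAT3-deficient and 6.21 in STAT3 wild-type cells. Its 2 highest levels only just passed background, so the difference of 1.58 is at least 1.02-fold, and the mean of its probe sets gave 0.85. The lower gene was Gcnt2, at -1.04 or 2.06-fold, and its other 5 probe sets above background differed by -1.22, -0.85, -0.69, -0.37 and -0.32, the last against a level under background. Gcnt2 was thus called lower in both deletion pairs, while Gcnt1 was called in opposite directions. Chst11, a chondroitin 4-sulfotransferase, came nearest to 2-fold without reaching it, at 8.48 in STAT5-deficient and 7.49 in STAT5 wild-type cells (0.98).

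**Figure D3:**
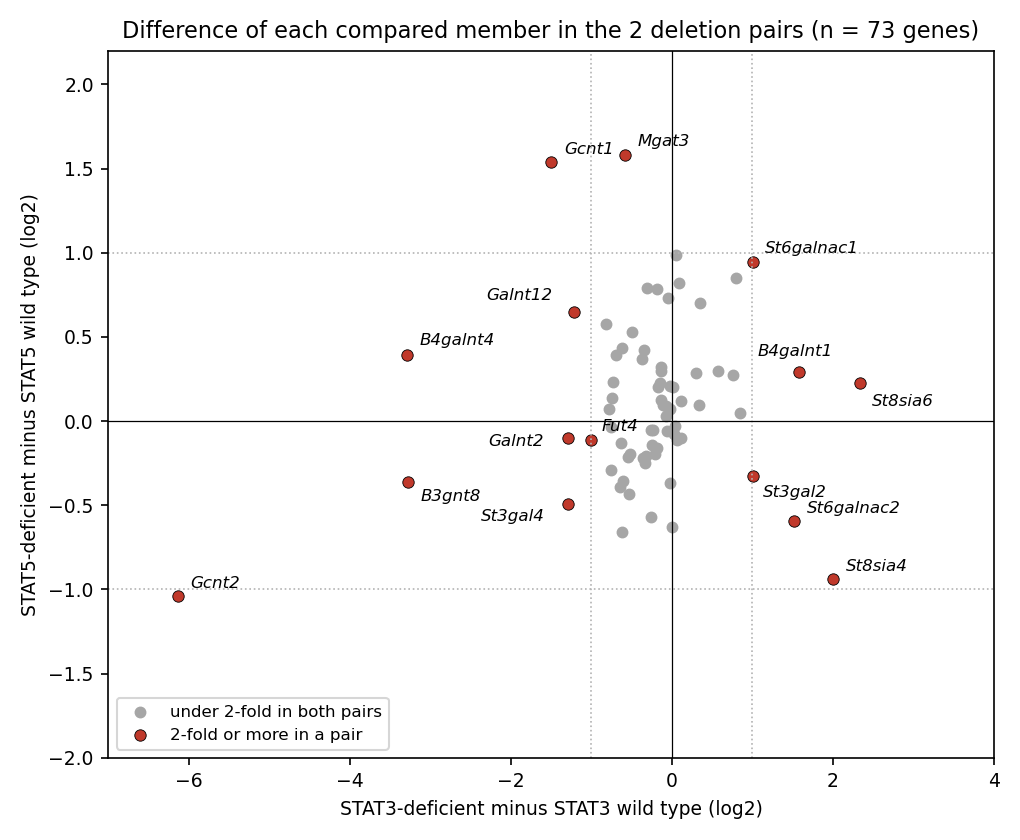
Difference in the STAT3 pair (log2, horizontal axis) against the difference in the STAT5 pair (log2, vertical axis) for the 73 compared genes; dotted lines mark 2-fold and named red points passed it in a pair. Gcnt1 lies at -1.50 and 1.54, Gcnt2 at -6.13 and -1.04, and B3gnt8, B4galnt4 and St8sia6 lie far from 0 along the STAT3 axis and within 0.39 of 0 along the STAT5 axis.

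In the STAT3 pair, 7 called genes had several probe sets above background on some array, and in all 7 these differed in the same direction, although some set a level against one under background. The same held for 2 of 2 genes in the STAT5 pair and 3 of 3 between the controls. Among all genes compared, this rule kept 333 of 354 higher and 883 of 900 lower calls in the STAT3 pair. It kept 223 of 231 and 211 of 217 in the STAT5 pair, and 274 of 292 and 359 of 367 between the controls. Genes with 1 probe set pass it by construction. The agreement is thus not read as a trait of these families. The sizes could differ, as for B4galnt1. For St3gal6, which is not called, the brightest probe set is of a type that can match several transcripts and gave -0.25 in the STAT5 pair. Another of its probe sets passed background only in STAT5 wild-type cells, at 6.51, against 4.71 in STAT5-deficient and 4.26 in STAT3 wild-type cells, at least 1.24-fold in both comparisons.

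**Figure D4:**
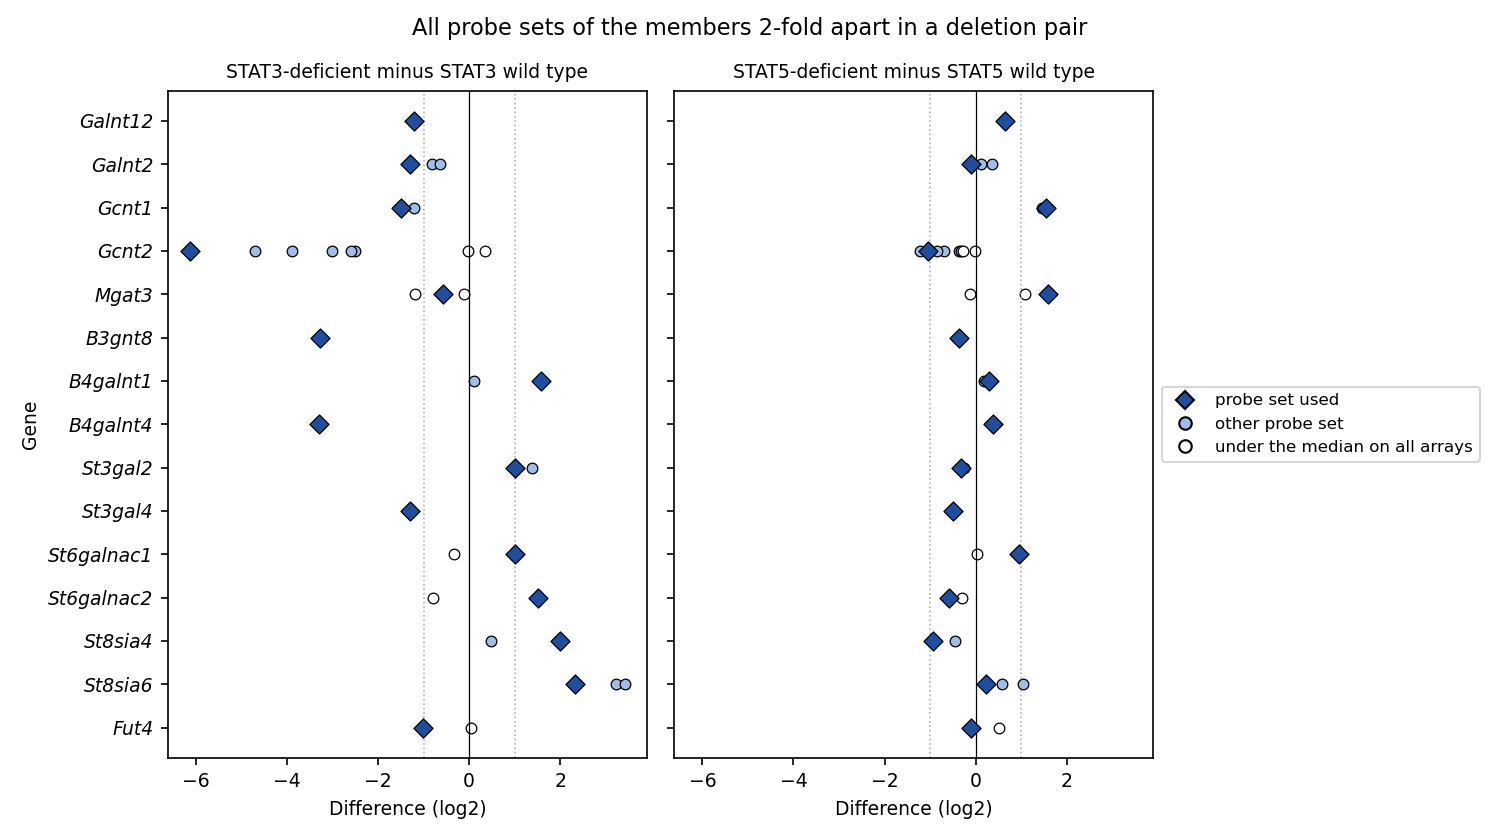
Differences (log2, horizontal axis) of every probe set of the 15 genes called in a deletion pair (rows), for the STAT3 pair on the left and the STAT5 pair on the right; diamonds are the probe sets used, filled circles the others and open circles those under 6.20 on all 4 arrays. All filled markers of Gcnt2 lie left of 0 in both panels, and all 3 of St8sia6 lie right of 1 in the left panel.

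Between the controls, STAT5 wild type with IL-2 added had 1 gene higher and 5 lower than STAT3 wild type with IL-2 neutralised, or 1.37% and 6.85% of the 73, beside 2.35% and 2.95% of all genes compared. This comparison shares a control array with each deletion pair, and the IL-2 treatment, the floxed locus and the culture cannot be told apart in it. St8sia1, the GD3 ganglioside synthase, differed most. It was at 7.33 in STAT5 wild-type and 9.48 in STAT3 wild-type cells (-2.15), and at 7.12 in STAT5-deficient and 8.93 in STAT3-deficient cells. Both arrays of cells cultured with IL-2 thus lay below both arrays of cells cultured with IL-2 neutralised, whatever the deletion, and the 2 other probe sets differed by -1.23 and -0.99 between the controls.

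Galnt9, an initiating enzyme, showed the same layout, at 6.28 in STAT5 wild-type and 7.72 in STAT3 wild-type cells (-1.44), and at 6.17 in STAT5-deficient and 7.78 in STAT3-deficient cells. It has 1 probe set. Galnt3, another initiating enzyme, showed the reverse layout, at 8.16 in STAT5 wild-type and 7.16 in STAT3 wild-type cells (1.0), and at 8.29 in STAT5-deficient and 7.28 in STAT3-deficient cells. Its other probe set above background gave 0.36 between the controls and the mean of its probe sets 0.53, both short of 2-fold. St6gal1 came just short of 2-fold at 10.38 in STAT5 wild-type and 11.36 in STAT3 wild-type cells (-0.98). The other lower genes were B4galnt4 (-1.01), St6galnac3 (-1.66) and Mgat3 (-1.56). St6galnac3 passed background only in STAT3 wild-type cells, and with both it and Mgat3 under background in STAT5 wild-type cells the data give at least 1.35-fold and 1.01-fold. With such levels set to 6.20, 1 gene was higher and 3 lower (1.98% and 1.69% of all genes). With arrays centred, B4galnt4 was at -0.82 and the split became 3 higher and 4 lower, B3gnt2 and Mgat4a being the genes added above (4.77% and 1.83% of all genes). At 3-fold 0 were higher and 2 lower (0.659% and 0.764%), and at 1.5-fold 4 and 8 (10.8% and 9.97%).

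The genes that supply and receive these enzymes' products were read from 8 lists of sugar nucleotide synthesis and transport, N-glycan trimming, core 1 synthesis, other glycosyltransferases, sialidases, selectin ligand carriers and galectins. Of 62 listed genes 56 were analysed and 51 compared. In the STAT3 pair 2 were higher and 2 lower (3.92% each, beside 2.85% and 7.24% of all genes compared), with a median difference of -0.11. Papss2, which makes the sulfate donor of the Chst enzymes, was at 8.07 in STAT3-deficient and 4.89 in STAT3 wild-type cells (3.19, or 1.58 as the mean of its probe sets), with its control under background, at least 3.67-fold. Uap1, which makes UDP-GlcNAc, was at 11.21 in STAT3-deficient and 9.53 in STAT3 wild-type cells (1.68, or 0.75 as the mean of its probe sets). Selp, the P-selectin gene, was at 6.12 in STAT3-deficient and 8.06 in STAT3 wild-type cells, at least 3.64-fold lower, and Lgals12, a galectin gene, at 5.92 in STAT3-deficient and 7.0 in STAT3 wild-type cells (-1.08, or -0.84 with arrays centred). Both deficient levels were under background, and for Lgals12 that gives at least 1.74-fold, short of 2-fold. The Golgi transporters, the trimming enzymes and the core 1 synthase genes had 0 calls in all 3 comparisons. The shares of all genes compared were 10.1% in the STAT3 pair, 3.60% in the STAT5 pair and 5.30% between the controls.

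In the STAT5 pair, 0 of the 51 genes were called, beside 1.86% higher and 1.74% lower among all genes, and their median difference was 0.002. Between the controls, Gmds (1.5), which makes GDP-fucose, and Pgm3 (1.23), of UDP-GlcNAc synthesis, were higher in STAT5 wild type, and Selp (-1.81) was lower, or 3.92% and 1.96% beside 2.35% and 2.95% of all genes. Selplg, which encodes the P-selectin ligand PSGL-1 that Gcnt1, Fut7 and St3gal4 modify, was at 12.45 in STAT3-deficient cells, 12.78 in STAT3 wild-type cells, 12.27 in STAT5-deficient cells and 12.42 in STAT5 wild-type cells. It differed by -0.33 and -0.15 in the 2 deletion pairs.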

How the data were processed

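RNA of 4 cultures was measured on Affymetrix mouse genome arrays, 1 per group. The authors deposited 1 value per probe set, made with Affymetrix Power Tools per the submitters' processing notes; no source used here gives its version, algorithm, background correction or base of the logarithm. The deposited values were read as log2 from their range, and another base would change every fold printed. Groups come from the titles.

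The platform annotation names 1 gene for 34945 probe sets after control probe sets were left out and several for 932, among them 2 that name a member and another gene; these were not used. All 99 member identifiers were in RefSeq of GRCm38.p6, with 0 symbols changed; B4galnt3, Galnt17, Gcnt4 and Mgat4f were not analysed here. With 1 array per group, results are differences with no test, SE or p-value, called at 2-fold. The calling step was run on simulated data with known differences. Alternatives were averaging probe sets, dropping those whose suffix marks matches to several transcripts, a filter at percentile 75 (8.29) or none, median and loess (span 0.4) centring, 1.5-fold and 3-fold calls and, added later, agreement of probe sets and levels under 6.20 set to it. Every gene called in a deletion pair, and the brightest of each family, is given by level. Members, lists and rules were chosen with earlier results of these data known. Python 3.11.15 and statsmodels 0.14.6 were used.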

Additional observations from a re-analysis of the deposited data

How the results depend on the processing

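The 6 counts of called genes were recomputed under 10 alternatives. Of the 60 values, 33 stayed within 1.5 times the reported count, and the cause of the other shifts was not tested beyond what each setting does by construction. The members compared numbered 58 with probe sets averaged and 62 without probe sets that can match several transcripts. They numbered 34 at percentile 75, 99 without a filter and 73 otherwise, so counts from these settings are not out of the same number. In the STAT3 pair the 6 higher genes became 3 with probe sets averaged and 3 at 3-fold (2.56% and 1.44% of all genes). The 8 lower genes became 20 at 1.5-fold and 3 at 3-fold (19.2% and 2.76%). In the STAT5 pair the 2 higher genes became 1 with probe sets averaged, 4 without a filter, 1 at percentile 75, 11 at 1.5-fold and 0 at 3-fold. The shares of all genes were 1.6%, 2.11%, 1.63%, 6.43% and 0.587%, in that order. The 1 lower gene in the STAT5 pair became 0 with probe sets averaged, 2 without probe sets that can match several transcripts and 2 without a filter. It became 2 with array median centring, 5 at 1.5-fold and 0 at 3-fold. The shares of all genes were 1.41%, 1.63%, 1.63%, 2.04%, 5.18% and 0.563%, in that order. Between the controls the 1 higher gene became 0 with probe sets averaged, 2 without probe sets that can match several transcripts and 0 at percentile 75. It became 3 with array median centring, 4 at 1.5-fold and 0 at 3-fold. The shares of all genes were 1.89%, 2.28%, 2.66%, 4.77%, 10.8% and 0.659%, in that order. The 5 lower genes of 73 became 3 of 58 with probe sets averaged, 2 of 34 at percentile 75, 8 at 1.5-fold and 2 at 3-fold. For these the shares of all genes were 2.43%, 1.96%, 9.97% and 0.764%. Requiring all probe sets above background to move one way, an alternative chosen after seeing the data, changed 0 counts. It also changed little among all genes, whose shares in the STAT3 pair were then 2.68% higher and 7.1% lower, against 2.85% and 7.24%. Setting levels under background to 6.20, also chosen after seeing the data, left 1 higher gene in the STAT5 pair (1.24% of all genes). Between the controls it left 3 lower genes (1.69% of all genes). The 19 called genes gave 222 recomputed differences, over all 3 comparisons, whether called there or not. Of these, 208 kept their side of 2-fold, 13 fell short of it, 1 passed it and 0 called differences changed sign. All 13 that fell short were called differences, so the 208 overstate how well the calls held. No paired analysis was possible because each group had 1 array. Genes with levels near or under 6.20, such as Mgat3, St6galnac1, St6galnac2, St6galnac3 and Fut4, are limited by signal over background.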
